A study of Mus musculus with 6 samples.

Results

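The iron handling genes of mouse bone marrow (BM) hematopoietic stem cells (HSCs) were followed in RNA-seq libraries of mice given insulin-like growth factor 1 (IGF1) and of control mice. The genes were 10 symbols grouped by role, and all 10 were found among the 21878 gene symbols of each library. Slc11a2, Tfrc and Steap3 serve iron import, Fth1, Ftl1 and Ncoa4 serve iron storage and the turnover of ferritin, Slc40a1 serves iron export, and Ireb2, Fbxl5 and Hmox1 serve iron sensing and heme breakdown. The mice were wild type (WT), and the cells were sorted from BM as CD34-, Flk2- (the protein of Flt3), lineage-, Sca1+ and c-Kit+. Control mice received vehicle, and IGF1 mice received recombinant mouse IGF1 under the skin and were sampled 1 day later, as the study's methods and legends state. The background of the mice was C57BL/6 and their age was not given in the sources used here. There were 3 control and 3 IGF1 libraries. Nothing in the labels says that the 3 libraries of a group came from separate mice, so the p-values measure the spread between these libraries, which may be technical. The labels disagree on the treatment, which the treatment label and the design give as IGF1 and the extraction text as irradiation, and IGF1 was taken here.

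Iron enters most cells bound to transferrin through the transferrin receptor (Tfrc), is reduced in the endosome by a reductase such as Steap3, and leaves the endosome through the divalent metal transporter (Slc11a2, also known as DMT1). Iron that is not used is stored inside ferritin, a shell built of heavy (Fth1) and light (Ftl1) subunits, and is released again when the cargo receptor Ncoa4 carries ferritin to the lysosome, which is called ferritinophagy. Ferroportin (Slc40a1) is the exporter of cellular iron. The iron regulatory proteins Ireb2 and Aco1 bind a hairpin in messenger RNA, the iron-responsive element, when iron is low. Bound in a 5' untranslated region (UTR) the hairpin blocks translation, and bound in the 3' UTR of Tfrc it protects the message from decay. Fbxl5 senses iron and marks Ireb2 for degradation, and Hmox1 frees iron from heme. In HSCs the labile iron pool has been linked to ferroptosis, an iron-dependent form of cell death.

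The iron-responsive element was searched for in the transcripts of the 10 genes, because it ties ferritin, ferroportin and the importers to one sensor. The pattern was a bulged C, 5 bases, the loop CAGTGN, and 5 bases of which at least 4 pair with the first 5, with G-T counted as a pair. It was read on the transcript strand of GENCODE M21 (GRCm38), and T stands for U. Of 10053 protein-coding genes tested below, 1.23% held the pattern in a 5' UTR and 6.15% in a 3' UTR. Among the 10 genes it was found in the 5' UTR of Fth1, Ftl1 and Slc40a1 and in the 3' UTR of Slc11a2 and Tfrc. It was not found by these letters in Steap3, Ncoa4, Ireb2, Fbxl5 and Hmox1. Capitals mark the bulged C and the loop.
Fth1, 5' UTR, chr19:9982732-9982760, + strand: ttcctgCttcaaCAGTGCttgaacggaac
Ftl1, 5' UTR, chr7:45459779-45459807, - strand: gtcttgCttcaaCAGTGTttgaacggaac
Slc40a1, 5' UTR, chr1:45925465-45925493, - strand: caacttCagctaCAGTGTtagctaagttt
Slc11a2, 3' UTR, chr15:100395153-100395181, - strand: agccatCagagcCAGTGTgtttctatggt
Tfrc, 3' UTR, chr16:32631219-32631247, + strand: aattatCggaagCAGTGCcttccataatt
Tfrc, 3' UTR, chr16:32631598-32631626, + strand: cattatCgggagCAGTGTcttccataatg
Tfrc, 3' UTR, chr16:32631663-32631691, + strand: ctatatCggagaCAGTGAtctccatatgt
Tfrc, 3' UTR, chr16:32631710-32631738, + strand: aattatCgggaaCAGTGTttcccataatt
Fth1 and Ftl1 shared the upper stem on both sides of the loop. Slc11a2 was the only one of these genes whose upper stem paired at 4 of 5 positions, and the others paired at 5. Its pattern lay in 1 of 7 coding transcripts, so the messages with and without it cannot be told apart in values given per gene. The pattern lay in 4 of 5 coding transcripts of Fth1, 2 of 3 of Ftl1, 1 of 4 of Slc40a1 and 1 of 3 of Tfrc.

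The files gave 1 value per gene and library, taken as FPKM (fragments scaled by gene length and library depth), which allows levels to be compared between genes. Reads on listed genes, recovered from the steps of the values, came to between 11206800 and 15973834 per library. Control replicate 2 stood apart from the other controls. It differed from control replicates 1 and 3 by over 2-fold at 4176 and 4184 genes, from the IGF1 libraries at 851 to 920 genes, while control replicates 1 and 3 differed from each other at 128. The fitted values of the 9 iron genes tested are therefore given with and without control replicate 2. Of 9 genes of HSC identity and the sort, 6 were at 1 FPKM or more in all 6 libraries. The messages of the surface proteins that the sort excluded were present, at levels that differed between the libraries. Cd34 was at 640, 265 and 634 FPKM in control and 231, 238 and 230.2 FPKM in IGF1, and Flt3 at 117, 172 and 117 FPKM in control and 187, 188 and 183 FPKM in IGF1. Kit, a gene the sort selects for, was at 105, 31.4 and 104 FPKM in control and 24.6, 24.4 and 24.2 FPKM in IGF1, and Ly6a, the gene of Sca1, at 219, 615 and 231 FPKM in control and 385, 387 and 374 FPKM in IGF1. In Cd34, Flt3 and Kit control replicate 2 lay between the groups, and the part of these genes in the results on iron genes was not tested.

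**Figure D1:**
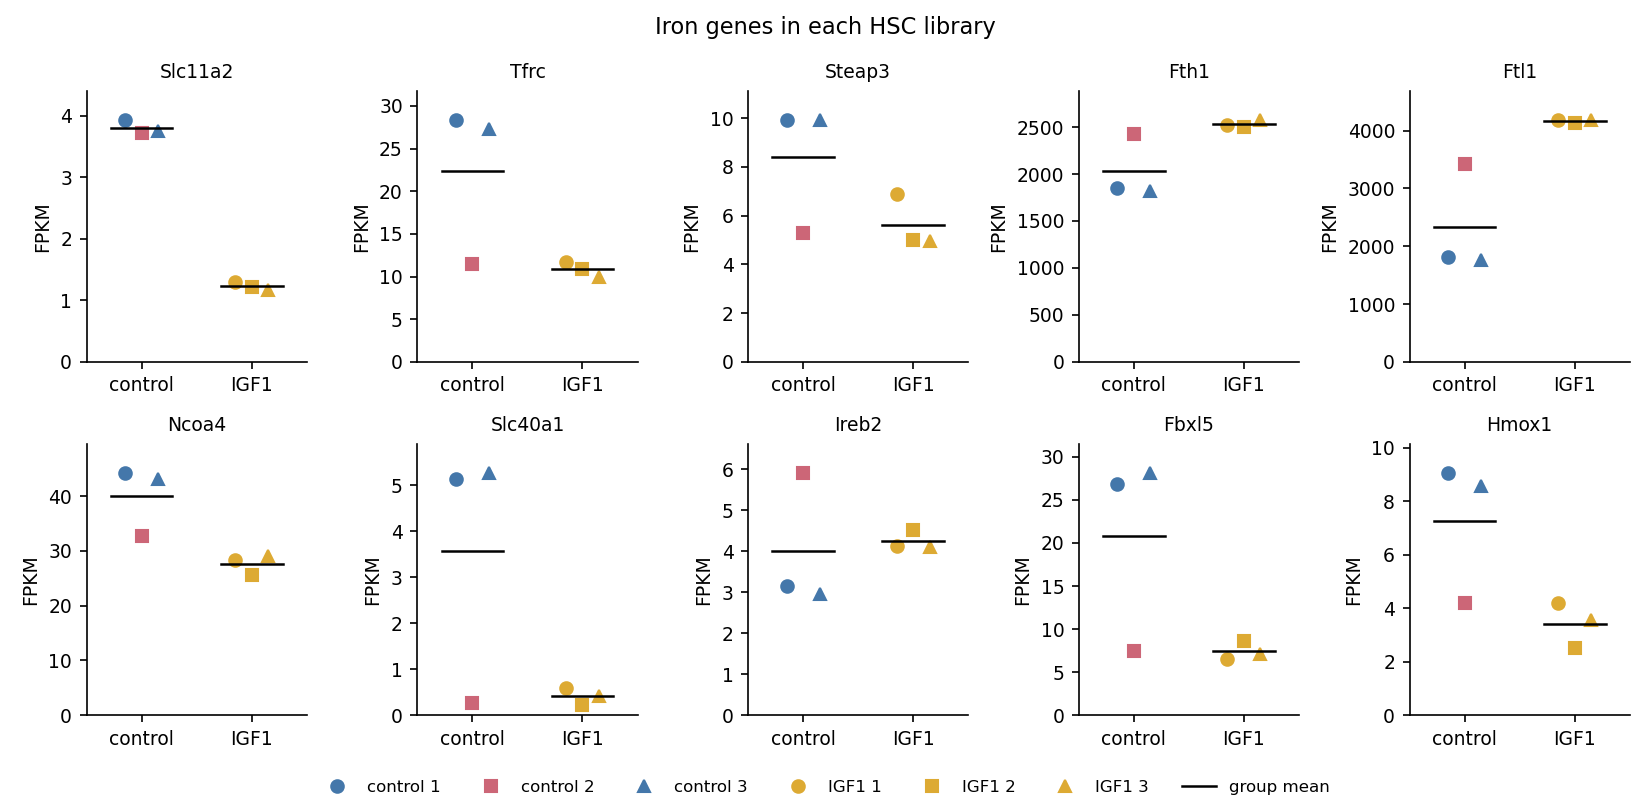
FPKM of the 10 iron genes in each library, 1 panel per gene with its own linear axis from 0, controls on the left and IGF1 on the right; points are libraries and bars are group means. Control replicate 2 (red squares) sits with the other controls in Slc11a2, and inside or beyond the IGF1 range or between the groups in the other 9 genes.

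In HSCs after IGF1, Slc11a2 was lower than after vehicle and was the single iron gene called. The fit was made with limma on log2(FPKM + 1) over the 10449 genes that reached 1 FPKM in 3 or more libraries, and calls needed more than a 2-fold change with an adjusted p under 0.05. Of the 10 iron genes, 9 met this filter and 1 was called, beside 6.61% of all genes tested. Of the 9, 5 had an unadjusted p under 0.05, beside 53.4% of all genes. Over the 9, 6 log2 fold changes were below 0 and 3 above, and the median was -0.51 beside -0.18 over all genes tested. Without control replicate 2, 4 of the 9 were called lower in IGF1 (Slc11a2, Tfrc, Fbxl5 and Hmox1) beside 20.6% of all genes, and 1 was called higher (Ftl1) beside 12.3%. All 9 then had an adjusted p under 0.05, as did 88.5% of all genes with no fold threshold, and their median was -0.74 beside -0.24. The values of the groups did not overlap over all 6 libraries in Slc11a2, Fth1, Ftl1 and Ncoa4, which is 4 of 10 genes beside 59.4% of the genes tested. In bulk RNA, fewer cells of a type and less RNA per cell cannot be told apart.

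**Figure D2:**
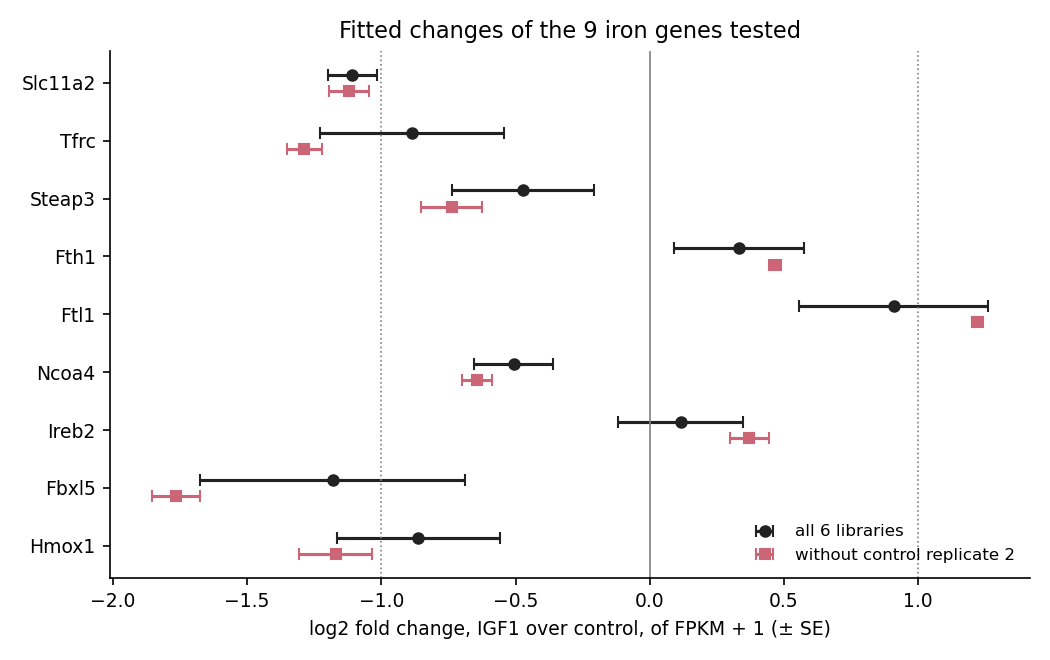
Fitted log2 fold change of FPKM + 1, IGF1 over control, for the 9 iron genes tested, with all 6 libraries (black circles) and without control replicate 2 (red squares). Whiskers are the standard error from limma and dotted lines mark the 2-fold threshold; Slc11a2 is at -1.11 in all libraries and -1.12 without control replicate 2, while Fbxl5 goes from -1.18 to -1.77.

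Slc11a2, the endosomal iron transporter (chr15:100387898-100425072, GRCm38, - strand), was at 3.94, 3.72 and 3.75 FPKM in control replicates 1, 2 and 3 and at 1.30, 1.22 and 1.17 FPKM in IGF1 replicates 1, 2 and 3. These levels rested on 280 to 411 reads per control library and 90 to 105 reads per IGF1 library. Every control library was thus above every IGF1 library, and control replicate 2 was not set apart from its group. The means were 3.80 ± 0.116 FPKM in control and 1.23 ± 0.0672 FPKM in IGF1 (SD, n = 3 each), a level 3.10-fold higher in control. On the log2(FPKM + 1) scale, which understates changes of low genes, the difference was -1.11 ± 0.09 (SE; adjusted p = 0.0286 in limma). A 2-sided exact permutation test gave p = 0.1, the smallest that 3 libraries against 3 allow. Without control replicate 2 the difference was -1.12 (adjusted p = 2.54e-07). The call was lost when any other single library was left out, with adjusted p between 0.141 and 0.164 and differences between -1.09 and -1.13, and no gene at all was called in those fits. The annotated gene overlaps Gm5475 on the opposite strand, and since the strand setting of the counting was not given in the sources used here, reads of both cannot be told apart.

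Slc11a2 was unusual in where control replicate 2 fell. On a scale of log2(FPKM + 1) where 0 is the IGF1 mean and 1 the mean of control replicates 1 and 3, control replicate 2 stood at 0.968 for Slc11a2. For the other genes it stood at 0.370 for Ncoa4, 0.231 for Ftl1, 0.211 for Hmox1, 0.138 for Fth1, 0.0653 for Tfrc and 0.00872 for Fbxl5. It lay beyond the IGF1 mean for Slc40a1 (-0.0682), Steap3 (-0.0809) and Ireb2 (-1.07). Among the 691 genes called, the median position was 0.394, and 29 of them, 4.20%, stood over 0.8. At or above the position of Slc11a2 there were 10 of the 691.

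The genes whose pattern over the 6 libraries was most like that of Slc11a2 were Brcc3, Zfp850, Zfp809, 2610002M06Rik and 2010315B03Rik, with Pearson r between 0.997 and 0.999 on log2(FPKM + 1). These correlations are a description over 6 libraries that fall into 2 groups. None of the 5 was called, since their log2 fold changes of FPKM + 1, from -0.61 to -0.90, were under 2-fold. The added 1 shrinks the changes of low genes. Zfp850 was at 2.06, 1.87 and 1.89 FPKM in control and 0.723, 0.705 and 0.717 FPKM in IGF1, over 2-fold in FPKM. Brcc3, for example, was at 28.3, 26.7 and 26.9 FPKM in control and 14.9, 15.2 and 14.6 FPKM in IGF1, again with control replicate 2 beside the other controls.

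Tfrc, the transferrin receptor (chr16:32608920-32632794, + strand), was at 28.4, 11.5 and 27.3 FPKM in control replicates 1, 2 and 3 and at 11.7, 10.9 and 9.92 FPKM in IGF1. Control replicate 2 lay inside the IGF1 range, and the other controls were above it. The log2 fold change was -0.89 ± 0.34 (SE; adjusted p = 0.0847), which missed the threshold, and -1.29 ± 0.07 (adjusted p = 3.19e-08) without control replicate 2. Control replicates 1 and 3 had 2.57 times the mean Tfrc level of the IGF1 libraries.

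Steap3, the endosomal ferric reductase (chr1:120190757-120272705, - strand), was at 9.94, 5.29 and 9.94 FPKM in control and at 6.88, 5.02 and 4.95 FPKM in IGF1. The groups overlapped, and IGF1 replicate 1 was higher than the other IGF1 libraries. Its log2 fold change was -0.47 ± 0.26 (SE; adjusted p = 0.176). Without control replicate 2 it was -0.74 ± 0.11 (adjusted p = 0.000139), short of a 2-fold change.

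The ferritin subunits were the most abundant of the iron genes by far, and their FPKM were higher in IGF1 than in every control, with fold changes that were not called over all 6 libraries. Ftl1, the light subunit (chr7:45457944-45459884, - strand), was at 1808, 3428 and 1769 FPKM in control replicates 1, 2 and 3 and at 4192, 4134 and 4184 FPKM in IGF1. The IGF1 libraries lay close together and control replicate 2 lay between the groups, nearer to IGF1. The means were 2335 ± 947 FPKM in control and 4170.1 ± 31.4 FPKM in IGF1 (SD, n = 3 each), and the log2 fold change was 0.91 ± 0.35 (SE; adjusted p = 0.0842). Without control replicate 2 it was 1.22 ± 0.02 (adjusted p = 9.88e-12) and called. The annotated gene overlaps Gm22133 on the same strand and Gm10252 on the opposite strand.

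Fth1, the heavy subunit that oxidises iron (chr19:9980598-9985098, + strand), was at 1856, 2425 and 1815 FPKM in control and at 2525, 2504 and 2579 FPKM in IGF1. Control replicate 2 was below the IGF1 libraries by a small margin and the other controls by a larger one. The log2 fold change was 0.33 ± 0.24 (SE; adjusted p = 0.278), and 0.47 ± 0.02 (adjusted p = 1.30e-08) without control replicate 2, under 2-fold in both fits. Although its FPKM was higher, Fth1 ranked lower among all genes in IGF1, at places 36, 33 and 31, than in control, at places 5, 23 and 5. Ftl1 ranked at places 6, 12 and 10 in control and 13, 13 and 14 in IGF1.

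The direction for Fth1 depended on what its level was set against. As a share of recovered reads, Fth1 took 0.176%, 0.231% and 0.173% in control and 0.240%, 0.238% and 0.246% in IGF1. As a share of the summed FPKM of the library, it took 0.398%, 0.382% and 0.389% in control and 0.371%, 0.369% and 0.380% in IGF1, so that here every IGF1 library was below every control. The summed FPKM itself was 466619, 635111 and 466135 in control and 677826 to 680285 in IGF1. Ftl1 was higher in IGF1 by both measures. It took 0.177%, 0.336% and 0.173% of reads in control and 0.405% to 0.411% in IGF1, and 0.388%, 0.540% and 0.380% of summed FPKM in control and 0.610% to 0.616% in IGF1. Of the rows named for ferritin, Fth1 and Ftl1 alone had values, and mitochondrial Ftmt and the Fthl17 genes were listed at 0 in every library. Processed copies of ferritin genes elsewhere in the genome could share reads with both, so their absolute levels are uncertain.

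Ncoa4, the receptor that delivers ferritin to the lysosome (chr14:32159865-32179855, + strand), was at 44.2, 32.7 and 43.1 FPKM in control replicates 1, 2 and 3 and at 28.3, 25.6 and 29.01 FPKM in IGF1. The groups did not overlap, and control replicate 2 was the control nearest to IGF1. The means were 40.0 ± 6.34 FPKM in control and 27.6 ± 1.83 FPKM in IGF1 (SD, n = 3 each). The log2 fold change was -0.51 ± 0.15 (SE; adjusted p = 0.0532), just over the threshold on p and under 2-fold. Leaving out control replicate 2 gave -0.64 ± 0.06 (adjusted p = 1.77e-06), also under 2-fold.

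Slc40a1, ferroportin (chr1:45908068-45926523, - strand), was at 5.15, 0.273 and 5.27 FPKM in control and at 0.601, 0.228 and 0.422 FPKM in IGF1. Control replicate 2 lay inside the IGF1 range. The low values rested on few reads, 11 in control replicate 2 and 9 to 26 in the IGF1 libraries, beside 288 and 297 in the other controls. Only 2 libraries reached 1 FPKM, so the gene did not enter the fit. The mean of control replicates 1 and 3 was 12.5 times that of IGF1, which is the widest gap among the 10 genes and carries no test here. In the fit without a filter its log2 fold change was -1.38 ± 0.64 (SE; adjusted p = 0.151).

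Fbxl5, the iron-sensing ubiquitin ligase subunit (chr5:43744615-43821638, - strand), was at 26.9, 7.47 and 28.1 FPKM in control and at 6.57, 8.57 and 7.13 FPKM in IGF1. Control replicate 2 lay inside the IGF1 range, and control replicates 1 and 3 had 3.70 times the IGF1 mean. Its log2 fold change was -1.18 ± 0.49 (SE; adjusted p = 0.0979), and -1.77 ± 0.09 (adjusted p = 2.94e-08) without control replicate 2. On the log2(FPKM + 1) scale this was the steepest decrease among the 9 genes fitted in each of these fits. The order depended on the added 1. With a pseudocount of 0.1 and all 6 libraries, Slc11a2 was steeper, at -1.56 beside -1.26 for Fbxl5. Fbxl5 overlaps 5 annotated genes, among them Gm42462, Gm43181 and Gm42555 on the same strand and Bst1 on the opposite strand. Bst1 was at 0.475 to 2.40 FPKM in control and 2.78 to 2.93 FPKM in IGF1.

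Ireb2, the iron regulatory protein that Fbxl5 marks for degradation (chr9:54863789-54912530, + strand), was at 3.16, 5.91 and 2.95 FPKM in control and at 4.12, 4.52 and 4.10 FPKM in IGF1. Control replicate 2 was the highest of the 6 libraries and the other controls the lowest. The log2 fold change was 0.11 ± 0.23 (SE; adjusted p = 0.688), and 0.37 ± 0.07 (adjusted p = 0.000783) without control replicate 2, under 2-fold.

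Hmox1, heme oxygenase 1 (chr8:75093621-75100589, + strand), was at 9.07, 4.18 and 8.58 FPKM in control and at 4.20, 2.52 and 3.54 FPKM in IGF1. Control replicate 2 was just below the highest IGF1 library, so the groups overlapped by that margin. The log2 fold change was -0.86 ± 0.30 (SE; adjusted p = 0.0711), and -1.17 ± 0.14 (adjusted p = 1.87e-05) without control replicate 2.

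Read side by side, the genes with the iron-responsive element in the 5' UTR did not share a direction. Ftl1 and Fth1 had fold changes above 0 as FPKM, while Slc40a1 was lower in IGF1 than in control replicates 1 and 3. Slc11a2 and Tfrc, with the element in the 3' UTR, both had fold changes below 0, and so did Fbxl5, Hmox1, Ncoa4 and Steap3, in which these letters were not found.

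Ratios of iron genes within a library do not change when all values of that library are multiplied by 1 factor, and they are given as a description. Fth1 over Ftl1 was 1.03, 0.707 and 1.03 in the 3 controls, in the order of their numbers, and 0.602, 0.606 and 0.616 in IGF1. The heavy and light subunit messages were thus near parity in control replicates 1 and 3, and the light subunit message was in excess in the IGF1 libraries and in control replicate 2. On the log2 scale the ratio was lower in IGF1 by a difference of -0.58, and of -0.76 without control replicate 2. An adjustment that treats genes of one library differently does change such a pair, and with length and GC trends removed the log2 fold change of Fth1 was above that of Ftl1 by 0.41. Under quantile normalization it was below by a difference of -0.66. Ncoa4 per 1000 FPKM of summed Fth1 and Ftl1 was 12.1, 5.59 and 12.01 FPKM in control and 4.22, 3.85 and 4.29 FPKM in IGF1, a log2 difference of -1.18, and of -1.55 without control replicate 2. Tfrc per 1000 FPKM of ferritin was 7.75, 1.97 and 7.61 FPKM in control and 1.74, 1.64 and 1.47 FPKM in IGF1, a log2 difference of -1.60, and of -2.25 without that library. In all 3 of these ratios every control was above every IGF1 library.

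Slc11a2 over Tfrc was 0.139, 0.323 and 0.138 in control and 0.111, 0.112 and 0.118 in IGF1. Control replicate 2 had the highest ratio of the 6 libraries, since its Tfrc was at the IGF1 level and its Slc11a2 at the control level. Fbxl5 over Ireb2 was 8.50, 1.27 and 9.54 in control and 1.60, 1.90 and 1.74 in IGF1, so that the controls 1 and 3 stood above all other libraries and control replicate 2 below them.

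**Figure D3:**
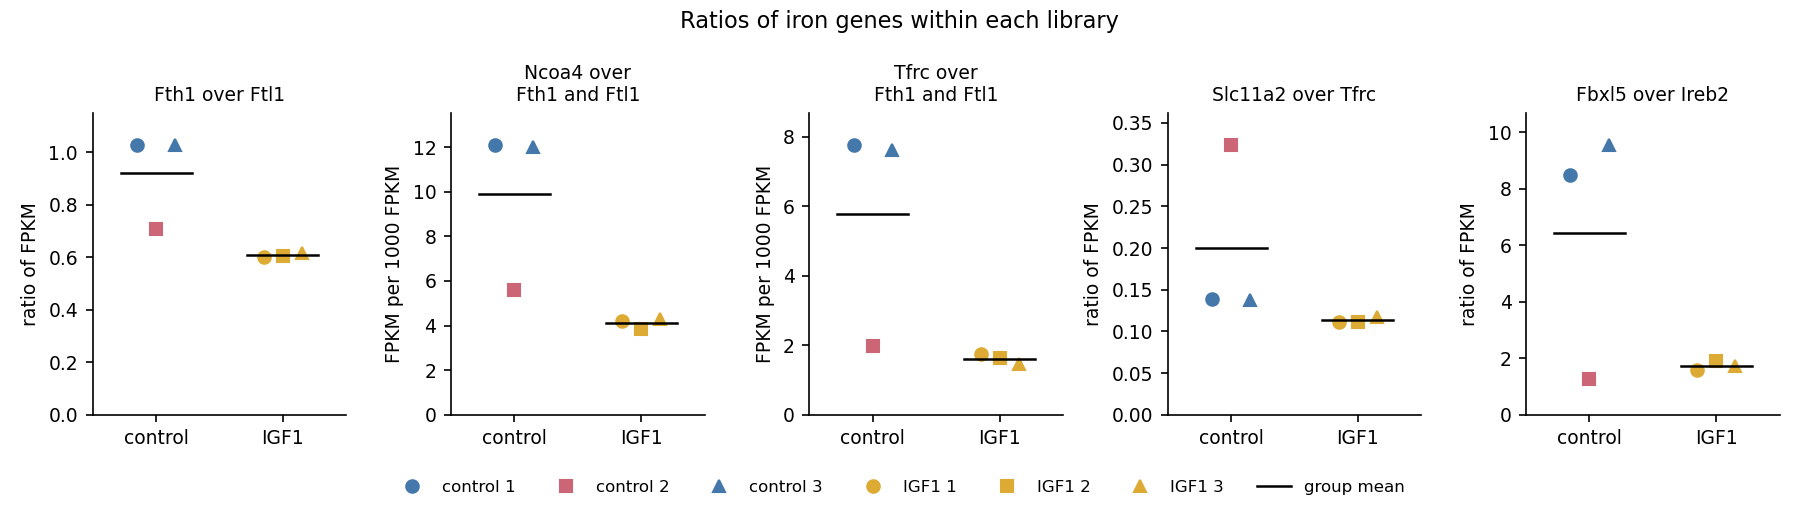
The 5 ratios of iron genes within each library, controls on the left and IGF1 on the right, on linear axes from 0; points are libraries and bars are group means. Fth1 over Ftl1 is 0.602 to 0.616 in the IGF1 libraries and 1.03 in control replicates 1 and 3, and control replicate 2 has the highest Slc11a2 over Tfrc, at 0.323.

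The size of the changes moved with the scaling between libraries, which shifted the median over all genes from -0.18 as deposited to -0.02 under quantile normalization, 0.06 under a common 75th percentile, -0.02 under median of ratios scaling and -0.52 when each library was scaled to a common summed FPKM. The last was chosen after the data were seen. Slc11a2 stayed below 0 under each of these, from -0.92 to -1.37, and was called as deposited, under quantile normalization (-1.09) and under the common summed FPKM (-1.37), but not under the 75th percentile (-0.92) or median of ratios scaling (-0.99), where it was under 2-fold. Tfrc, Steap3, Ncoa4, Fbxl5 and Hmox1 were below 0 under each. Fth1 went from 0.33 to -0.87 under quantile normalization and -0.06 under the common summed FPKM, and Ftl1 from 0.91 to -0.21 under quantile normalization. Ireb2 went from 0.11 to -0.19 under the common summed FPKM. None of these reversals passed the test.

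Gene length moved with the fold changes. When the genes were split by length into 5 bins of near-equal size, the shortest bin, up to 1890 bases of longest transcript, had a median log2 fold change of 0.38, and the other bins between -0.42 and -0.12. Ftl1, at 968 bases, and Hmox1, at 1569 bases, belong to the shortest bin, Fth1 has 2062 bases, and the other iron genes have 3928 to 5770 bases. With trends on length and GC content removed, Ftl1 fell from 0.91 to 0.10 and Ncoa4 went from -0.51 to -0.06. Tfrc went from -0.89 to -0.34, Fbxl5 from -1.18 to -0.56, Steap3 from -0.47 to -0.39 and Ireb2 from 0.11 to 0.56. Slc11a2 was then at -0.82 (adjusted p = 0.0315) and no longer called, Fth1 at 0.51 and Hmox1 at -1.07. With control replicate 2 also left out, which was chosen after the data were seen, Hmox1 was the single iron gene called, at -1.48, and Ftl1 was at 0.10 and Slc11a2 at -0.71.

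**Figure D4:**
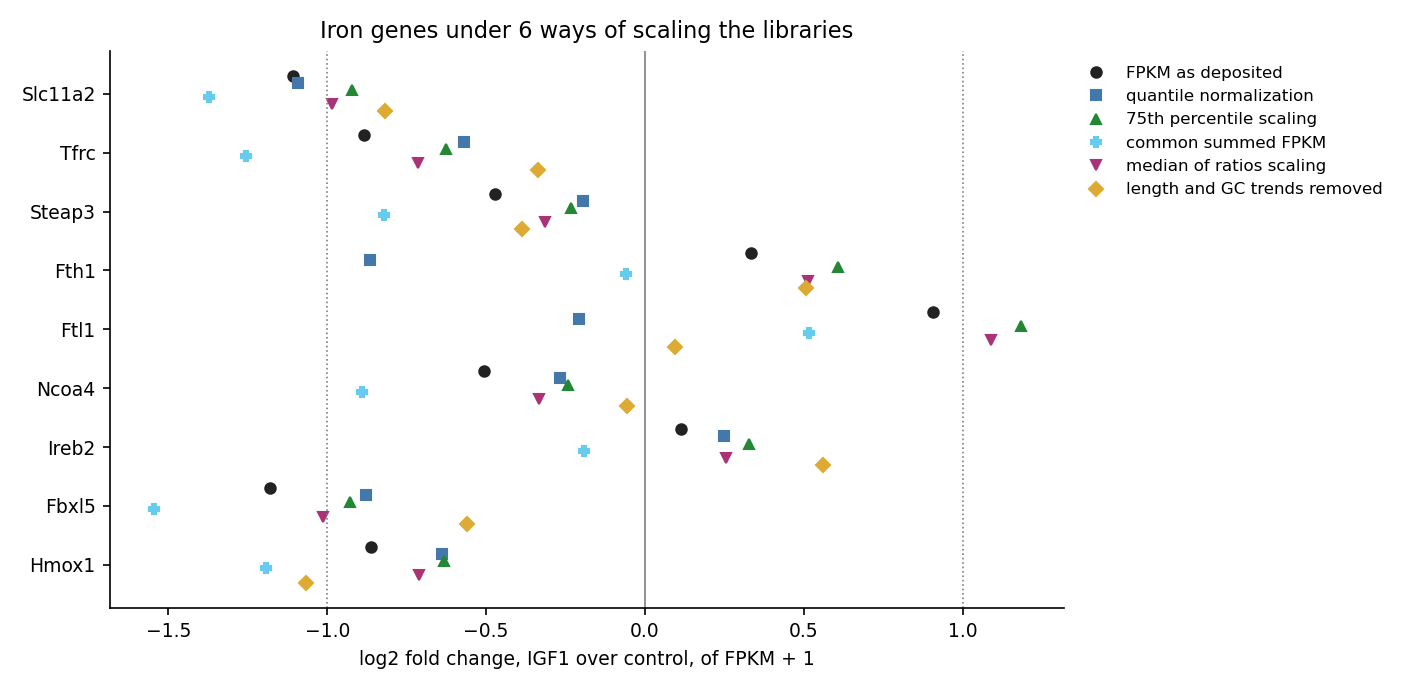
Log2 fold change of FPKM + 1, IGF1 over control, of the 9 iron genes tested under 6 ways of scaling or adjusting the 6 libraries, each with its own symbol; dotted lines mark 2-fold. Slc11a2 stays between -0.82 and -1.37, while Fth1 and Ftl1 lie on both sides of 0.

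Among other genes of iron metabolism, 3 were called, all lower in IGF1. Of 65 in the list, 51 were tested, 0 were called higher and 3 lower beside 6.61% of all genes in either direction, and 26 of the 51 had groups that did not overlap, beside 59.4% of all genes. Their median log2 fold change was -0.19, and without control replicate 2 there were 7 called higher, beside 12.3% of all genes, and 15 called lower, beside 20.6%. Voom on the recovered reads also called 3. Of the called genes, Abcg2 and Hspa9 are described here. Abcg2, which exports porphyrins, was at 28.2, 9.58 and 28.9 FPKM in control and 4.68, 4.76 and 4.66 FPKM in IGF1, a log2 fold change of -1.88 ± 0.42 (SE; adjusted p = 0.0412), and of -2.37 without control replicate 2. Hspa9, the mitochondrial chaperone of iron-sulfur cluster transfer, was at 240.2, 105 and 233 FPKM in control and 73.6, 74.2 and 71.8 FPKM in IGF1, a log2 fold change of -1.29 ± 0.33 (adjusted p = 0.0471), and of -1.68 without it. In both, control replicate 2 lay between the groups.

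By group, limma called 0 of 6 uptake genes, and voom on the recovered reads also called 0. Of the 6, 2 had an unadjusted p under 0.05, beside 53.4% of all genes, and the median was -0.56. With control replicate 2 left out, limma called 2 of the 6 lower, Slc39a8 (-1.74) and Trf (-1.68), beside 20.6% of all genes. The median was then -0.85. Over all 6 libraries the largest differences there were those of the metal transporter Slc39a8 (-1.23, adjusted p = 0.0700), transferrin Trf (-1.11, adjusted p = 0.102) and Hfe (-0.62, adjusted p = 0.0644), none of them called in that fit. Among 7 genes of storage and handling limma and voom each called 0. Of the 7, 2 had an unadjusted p under 0.05, beside 53.4% of all genes, and the median was 0.32. The largest differences were in biliverdin reductase Blvrb (0.94), the autophagy receptor Tax1bp1 (-0.92) and Herc2 (0.40), a ligase reported to act on Ncoa4. Without control replicate 2, 1 was called higher, Blvrb (1.39), beside 12.3% of all genes, and 1 lower, Tax1bp1 (-1.30), beside 20.6%. The median was then 0.58. Of 5 export genes 1 was tested, Abcg2. Hamp, Heph and Cp stayed under 1 FPKM in every library.

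In the regulation group limma and voom each called 0 of 10, with 7 at an unadjusted p under 0.05 beside 53.4% of all genes, and the median was -0.82, the lowest of the groups with more than 1 gene tested. Leaving out control replicate 2, 1 of the 10 was called higher, beside 12.3% of all genes, and 5 lower, beside 20.6%. The median was then -1.13, beside -0.24 over all genes. Cul1, the scaffold on which Fbxl5 acts, was at 61.6, 18.1 and 62.8 FPKM in control and 13.3, 13.8 and 11.9 FPKM in IGF1, with a log2 fold change of -1.60 ± 0.48 (SE; adjusted p = 0.0560), and of -2.18 without control replicate 2, where it was called. Hif1a (-1.37, adjusted p = 0.0720) and Nfe2l2 (-1.32, adjusted p = 0.0525), transcription factors of the hypoxia and oxidative stress responses, also had differences over 2-fold and were not called, and without control replicate 2 both were, at -1.94 and -1.77. Aco1, the partner of Ireb2, and Skp1a, the adaptor of Fbxl5, fall outside the rule for naming genes and are given because of their roles, with their values already known. Aco1 was at 13.5, 4.35 and 12.6 FPKM in control and 4.74, 4.74 and 4.17 FPKM in IGF1, with control replicate 2 inside the IGF1 range (-0.88, adjusted p = 0.115, and -1.34 and called without that library). Skp1a was at 263, 163 and 246 FPKM in control and 124, 132 and 128 FPKM in IGF1 (-0.77, adjusted p = 0.0478), under 2-fold.

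The 27 genes of mitochondrial iron, heme and iron-sulfur clusters were all tested. Of these, 2 were called lower, Hspa9 among them, beside 6.61% of all genes in either direction. An unadjusted p under 0.05 was found for 12 of the 27, beside 53.4% of all genes, and the median was -0.03. Once control replicate 2 was left out, 5 were called higher, beside 12.3% of all genes, and 6 lower, beside 20.6%. The median was then 0.03. A large difference that was not called was that of the mitochondrial iron importer Slc25a28, at 4.50, 18.1 and 3.75 FPKM in control and 16.3, 14.6 and 15.5 FPKM in IGF1 (1.06, adjusted p = 0.144, and 1.69 and called without control replicate 2). Control replicate 2 was the highest of the 6 libraries there. The iron-responsive element pattern occurred in 5 of the 51 genes tested, in the 5' UTR of Hif1a and the 3' UTR of Bach1, Cisd2, Iba57 and Bola3, as a match of letters only.

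**Figure D5:**
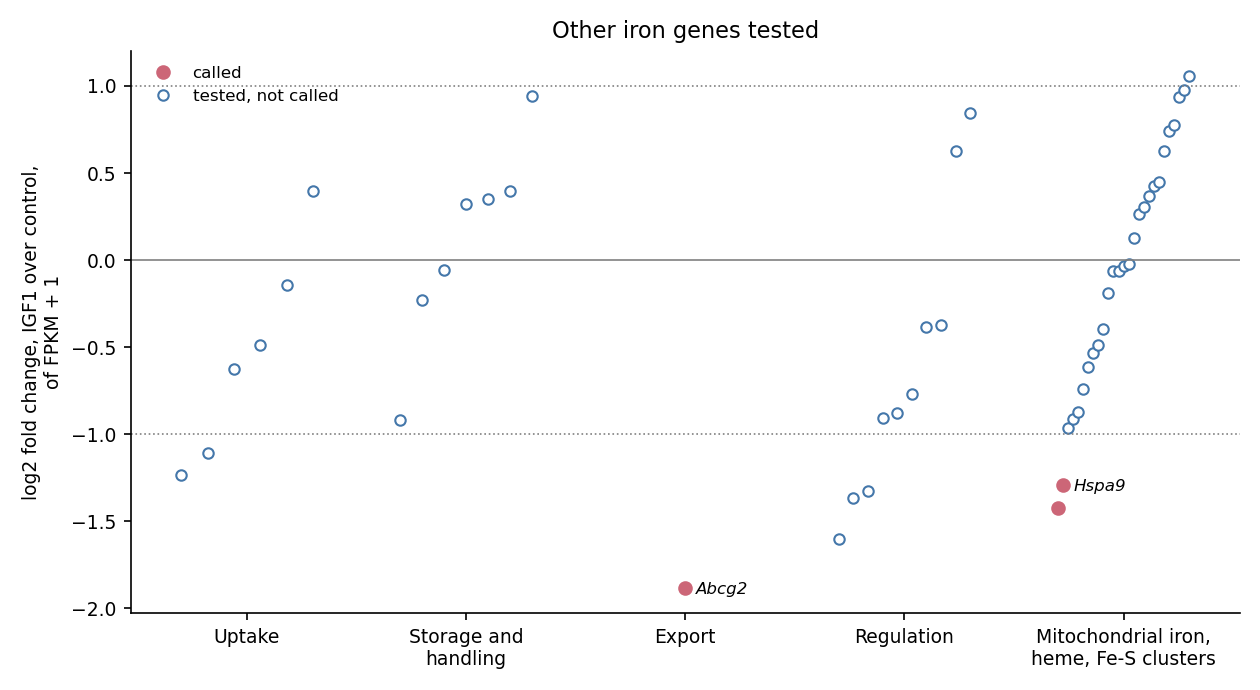
Log2 fold change of FPKM + 1, IGF1 over control, of the 51 other iron genes tested, by group and in rising order within each group; filled points were called and dotted lines mark 2-fold. All 3 called points are below -1, with Abcg2 and Hspa9 labelled.

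Markers of other cell types are given beside these genes, and their part in the results was not tested. Of 12 macrophage genes, a cell type known for high Slc40a1, Hmox1 and ferritin, 6 were at 1 FPKM or more in all libraries, and their summed FPKM was 106, 98.1 and 104 in control and 100.1, 102 and 96.3 in IGF1. The members did not move together. Vcam1 was at 9.73, 1.22 and 8.82 FPKM in control and 0.753 to 0.806 FPKM in IGF1. Spic was at 5.08, 2.87 and 3.82 FPKM in control and 0.735 to 1.67 FPKM in IGF1. Mrc1 was at 1.30, 0.179 and 1.38 FPKM in control and 0.0498 to 0.117 FPKM in IGF1. Adgre1 was at 1.37, 0.342 and 1.29 FPKM in control and at most 0.771 FPKM in IGF1. In each of these, as in Slc40a1, control replicates 1 and 3 were above all other libraries. In the other direction, Cd68 was at 36.5, 49.5 and 36.8 FPKM in control and 48.1 to 54.0 FPKM in IGF1. Csf1r was at 13.0 to 14.7 FPKM in control and 14.9 to 15.8 FPKM in IGF1. Cd163 was at 3.73, 3.11 and 3.57 FPKM in control and 3.83 to 4.22 FPKM in IGF1.

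Summed over 12 erythroid genes found, a type that takes up iron through Tfrc, the level was 43.3, 114 and 46.4 FPKM in control and 57.6, 63.7 and 59.5 FPKM in IGF1, so that control replicate 2 was above and the other controls below IGF1. The sum over 10 neutrophil genes was 2268, 2438 and 2301 FPKM in control and 2439 to 2445 FPKM in IGF1, most of it Mpo, at 1613 to 1705 FPKM in the 6 libraries. Within that list S100a8 was at 284, 163 and 285 FPKM in control and 55.0 to 72.8 FPKM in IGF1, and Elane, in the other direction, at 92.8, 576 and 92.4 FPKM in control and 692 to 709 FPKM in IGF1. Over 6 B cell genes the sum was 109, 415 and 108 FPKM in control and 382 to 398 FPKM in IGF1, and over 6 megakaryocyte genes 53.8, 76.2 and 53.4 FPKM in control and 94.6 to 105 FPKM in IGF1. Within the megakaryocyte list Pf4 was at 15.6, 48.6 and 15.1 FPKM in control and 63.1 to 73.7 FPKM in IGF1. Itga2b did not follow it, at 32.2, 16.8 and 32.3 FPKM in control and 17.9 to 19.3 FPKM in IGF1. The B cell sum of control replicate 2 was above the IGF1 range and those of the other controls far below it.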

How the data were processed

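The authors sorted HSCs, extracted RNA (RNeasy Micro) and built poly-A libraries with a stranded kit. Submitters' processing notes name fastp, HISAT2 and StringTie with GRCm38 and mm10, while the study's methods name RSEM and DESeq2, so which program made the values is not settled. Each deposited file pairs gene symbols with the values of 1 library. The deposited values, whose unit the files do not name, were taken as FPKM that the authors computed from aligned reads, because within a gene they rose in steps that shrank with gene length (rank correlation of implied and longest transcript length 0.791). All 15640 genes above 0 gave whole reads to within 0.002 reads. Smallest whole numbers were used, so a gene's reads could be a multiple of those given.

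The 10 genes and all lists were chosen with earlier results of these data known. limma 3.58.1 (R 4.3.3; trended eBayes) compared 3 control with 3 IGF1 libraries on log2(FPKM + 1), over genes that reached 1 FPKM in 3 or more libraries, with Benjamini-Hochberg adjustment over all genes and the study's thresholds. The fit and the recovery of reads were tested on simulated data. Leave-out fits kept the same 10449 genes. All 10 iron genes are named. Of the other iron genes, those called and up to 3 per group with the largest absolute log2 fold change are named, except for items that are not reported here. Flvcr1 and Flvcr2 were not matched by symbol. Sequences and positions came from GENCODE M21 (GRCm38), and length and GC content were found for 99.1% of the genes tested. Alternatives were 4 scalings, filters, pseudocounts, no variance trend, a replicate block, library weights, length and GC trends, voom on recovered reads, other thresholds and leaving out each library.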

Additional observations from a re-analysis of the deposited data

How the results depend on the processing

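The count of iron genes called, 1 as reported, was 0 under the 75th percentile and median of ratios scalings, a minimum of 5 FPKM (Slc11a2 was then not tested), a pseudocount of 5, the replicate block and the removal of length and GC trends. It was 5 with library weights, which gave control replicate 2 a weight of 0.0137 beside 1.90 to 3.64 for the others, and 0 to 5 over the fits that left out 1 library, with the 5 reached without control replicate 2. Over all genes, the number called, 691 as reported (207 higher, 484 lower), was 374 with no filter, 223 with a pseudocount of 5, 0 with the replicate block, 3435 with library weights, 314 with length and GC trends removed, 1062 with voom on recovered reads, 2130 at an adjusted p alone, 1646 at a fold change over 1.5, 309 with a common summed FPKM, 2144 with length and GC trends removed and control replicate 2 left out, and 0 to 3438 over the fits that left out 1 library. The fits without any library other than control replicate 2 called 0 genes and had 2982 to 3205 genes at an unadjusted p under 0.05. The other iron genes called, 3 as reported, came to 0 with the replicate block and the common summed FPKM, 22 with library weights, 1 with length and GC trends removed, 16 with control replicate 2 also left out, 8 at an adjusted p alone, 5 at a fold change over 1.5, and 0 to 22 when 1 library was left out. Calls in the higher direction made up 30.0% of all calls as reported, 48.8% under quantile normalization, 65.6% under the 75th percentile, 50.3% under median of ratios scaling, 51.0% with length and GC trends removed and 13.3% with a common summed FPKM.

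Reversed values were those of Fth1 (-0.87) and Ftl1 (-0.21) under quantile normalization, of Fth1 (-0.061) and Ireb2 (-0.19) under the common summed FPKM and of Ireb2 without control replicate 3 (-0.032), where leaving out 1 library gave -0.032 to 0.37. The cause was not tested. Slc11a2 was below 0 in all 19 alternatives that gave it a value, from -0.50 to -1.63, and Tfrc, Steap3, Ncoa4, Fbxl5 and Hmox1 in all of theirs. Deviations of same-numbered libraries from their group means correlated at -0.057, -0.050 and 0.006. Control replicate 2 dominates the deviations of the controls, so these values cannot show whether the replicate numbers pair the libraries. The replicate block left Slc11a2 at -1.11 with an adjusted p of 0.0851 and 4791 genes at an unadjusted p under 0.05. Depth limits Slc40a1 (9 to 26 reads per IGF1 library), Hmox1 (45 to 82) and Slc11a2 (90 to 105).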
